A study of Mus with 2 samples.

Results

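Semaphorins are membrane-bound or secreted guidance proteins, and 9 genes of this ligand and receptor family were followed through mouse bone marrow. They were the semaphorin genes Sema4a, Sema4b, Sema4d and Sema6b, the plexin genes Plxnb2, Plxnc1 and Plxnd1, and the neuropilin genes Nrp1 and Nrp2. The members were taken by symbol from the 32285 genes of the deposited tables, which hold 31 semaphorin, plexin and neuropilin genes in all. Marrow came from the hindlimbs of mice in a group named ground and a group named running, and each group had 1 library of single cells. The labels give no strain, genotype, sex, age, running schedule or number of mice, so a difference between the libraries has no replicate check and no p-value is given. Ground against running and anything else that set the 2 libraries apart, from the mice to the preparation, cannot be told apart.

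Plexins are the main semaphorin receptors, and their cytoplasmic part acts on small GTPases, which set adhesion and the actin cytoskeleton. Neuropilins have a short cytoplasmic tail and act as co-receptors, for secreted semaphorins together with plexins and for vascular endothelial growth factors together with their receptors. Outside the nervous system the class 4 semaphorins are known mostly from immune cells, where they act between lymphocytes, dendritic cells and myeloid cells.

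The kept cells numbered 8666 in ground and 9080 in running, with medians of 5938 and 5146 unique molecular identifiers (UMIs, each a counted transcript molecule) per cell, and 24 cell barcodes occurred in both libraries. Cells were clustered without the family genes and the clusters were named from marker genes, giving 17 classes whose names end in "like". At least 16 markers of each class's list stood above 10 CPM (UMIs per 1000000 UMIs) in each library. Levels are UMIs summed over the cells of a class and divided by all UMIs of those cells, as CPM. Ratios are log2 of running CPM over ground CPM, with 95% intervals in parentheses that cover counting error only. CPM is not corrected for transcript length, so levels were compared within a gene and not between genes. Different clusters held most of the mature neutrophil-like class in each library. Cluster 7, led by Ifitm1, Wfdc17 and Il1b, held 59.9% of it in ground and 14.3% in running, and cluster 8, led by Jaml, Il1b and Hcar2, held 4.82% and 50.7%. Clusters 3 and 4 were present in both, at 18.5% and 16.7% of the class in ground and 25.2% and 9.78% in running.

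Over all cells, Sema6b was the member that differed most between the libraries, and it was lower in running. Ground had 603 UMIs of it (7.34 CPM) and running 168 (2.14 CPM), which gave a log2 ratio of −1.78 (−2.03 to −1.53). Sema6b was the 1 of 9 members past 2-fold, a size that 3.02% of the 13738 genes with at least 50 UMIs reached in either direction. The members were chosen with earlier results of these data known, so this comparison is a description and not a test. Nrp1 was higher in running, with 1906 and 2508 UMIs (23.2 and 32 CPM) and a log2 ratio of 0.46 (0.38 to 0.55). The other 7 members had log2 ratios from −0.13 for Sema4a to 0.22 for Plxnd1. The median of the 9 members was 0.14, beside 0.08 for all genes tested.

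**Figure D1:**
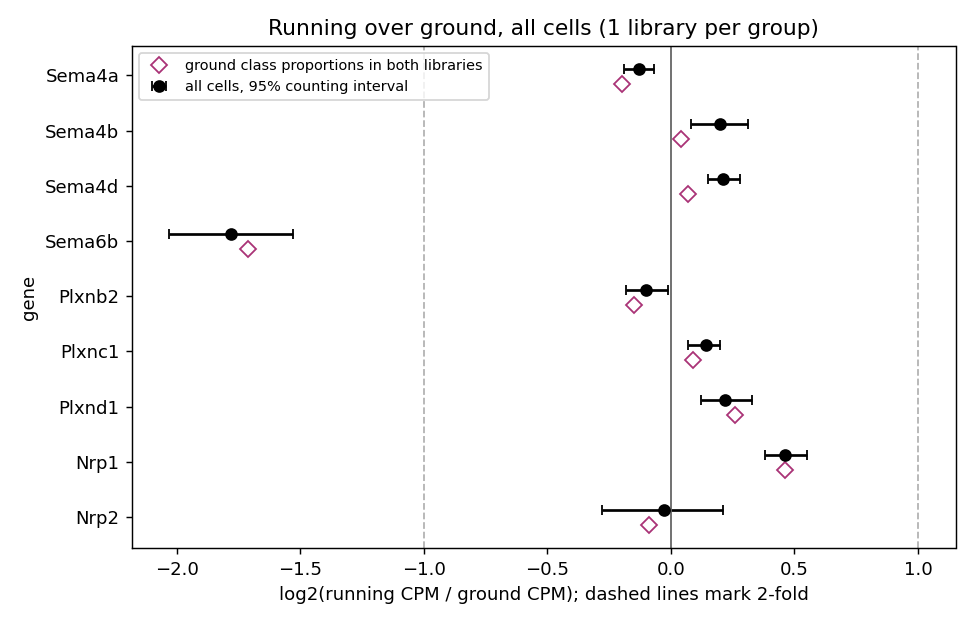
Log2 ratio of running over ground CPM for each member over all cells, with 1 library per group. Filled points carry 95% counting intervals, and open diamonds give the ratio when both libraries have the class proportions of ground. Sema6b stands at −1.78, beyond the dashed line of 2-fold, and Nrp1 at 0.46.

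Some of these ratios moved when class makeup was held equal. With the class proportions of ground in both, the ratio was −1.71 for Sema6b and 0.46 for Nrp1, close to the values above. Sema4b moved from 0.20 to 0.04 and Sema4d from 0.21 to 0.07. The intervals of both without the correction had excluded 0. Sema4a moved the other way, from −0.13 to −0.20, and Plxnd1 from 0.22 to 0.26.

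The members fell into a few patterns over the marrow classes. In ground, Sema4a and Sema6b had their highest levels in mature neutrophil-like cells. In running, Sema4a had 149 CPM in NK cell-like cells (60 UMIs) and 130 in mature neutrophil-like cells, with overlapping intervals. Sema6b was highest there in monocyte-like cells, with an interval that overlapped those of GMP-like and mature neutrophil-like cells. Plxnc1 was highest in immature neutrophil-like cells, and Plxnb2, Plxnd1, Nrp1 and Nrp2 mostly in mononuclear phagocytes and dendritic cells. Sema4b was highest in plasmacytoid dendritic cell-like and B-lineage cells, and Sema4d was found in nearly every class. These statements cover the 14 classes with at least 50 cells in each library.

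**Figure D2:**
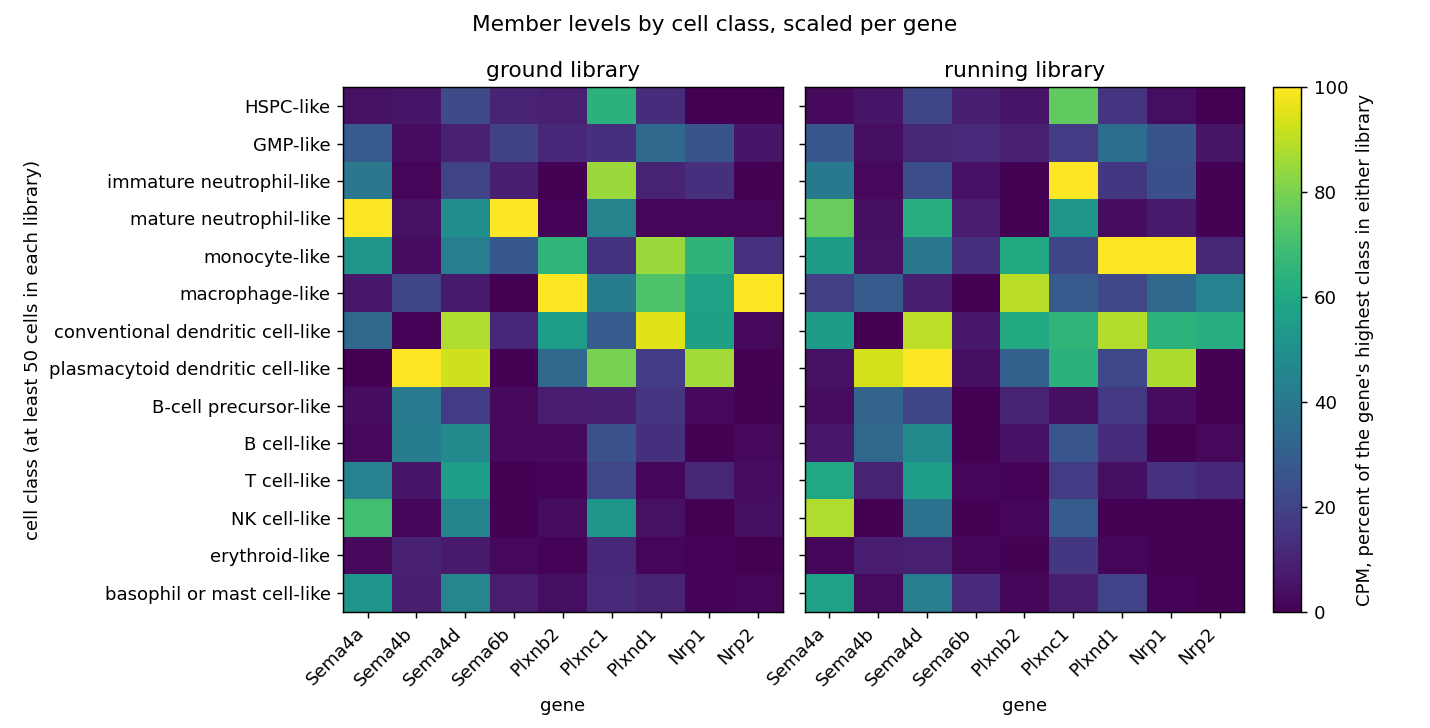
Level of each member in 14 cell classes of the ground library (left) and the running library (right), as a percent of the gene's highest class in either library. Rows are classes and columns are genes. Colours compare classes within a column, not genes with each other. Sema6b is brightest in mature neutrophil-like cells of ground alone, whereas Sema4b and Sema4d keep their pattern in both libraries.

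Sema6b (ENSMUSG00000001227; mm10 chromosome 17, 56123085 to 56140343) encodes a transmembrane class 6 semaphorin known as a ligand of A-type plexins in neurons. In ground, mature neutrophil-like cells held 323 of its UMIs (32 CPM), followed by monocyte-like cells with 105 (8.84 CPM) and granulocyte-monocyte progenitor (GMP)-like cells with 91 (6.13 CPM). In running, the same classes held 25, 51 and 41 UMIs (2.39, 4.49 and 3.78 CPM). The order of the classes thus differed between the libraries, with mature neutrophil-like cells highest in ground and below monocyte-like cells in running. The intervals of monocyte-like and GMP-like cells overlapped in both. In running the interval of mature neutrophil-like cells (1.55 to 3.53 CPM) also overlapped those of monocyte-like (3.35 to 5.91) and GMP-like cells (2.71 to 5.12). The order in running is therefore not settled by the counts. The log2 ratio in mature neutrophil-like cells was −3.74 (−4.39 to −3.16), and these cells held 298 of the 435 UMIs by which running was lower. The ratio was −0.98 (−1.49 to −0.48) in monocyte-like cells, −0.75 (−1.44 to −0.09) in the immature neutrophil-like class and −0.70 (−1.27 to −0.15) in GMP-like cells. Erythroid-like cells had 8 and 7 UMIs.

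The lower Sema6b level was seen inside each mature neutrophil-like cluster, beside the unequal cluster sizes. In cluster 7 it had 257 UMIs in ground and 7 in running (53.8 and 6.78 CPM), a log2 ratio of −2.99 (−4.32 to −1.92). In cluster 8 it had 10 and 11 UMIs (18.4 and 2.16 CPM), a ratio of −3.09 (−4.46 to −1.69). Cluster 3, led by Cstdc4, Stfa2l1 and Retnlg, had 34 and 7 UMIs (14 and 2.36 CPM), a ratio of −2.57 (−3.99 to −1.38). Cluster 4, led by Retnlg, Mmp8 and Prok2, had 22 UMIs in ground and 0 in running, which is at least 4.28-fold lower with a floor of 3 counts for the running cells of that cluster. In clusters 3 and 4 alone the ratio was −2.87. The summed level of 32 mature neutrophil markers was also lower in running, at 64600 CPM in ground and 56400 in running over the class, with 23 markers lower, 9 higher and none at 0. It was 63200 and 41100 CPM in cluster 7 and 70800 and 65500 in cluster 3, and its part in the Sema6b result was not tested. Within the ground library the gene stood highest in cluster 7, and its interval (47.4 to 60.8 CPM) lay above those of clusters 3, 4 and 8. Among monocyte-like clusters, cluster 32 had 16 and 9 UMIs with a ratio of −2.16 (−3.52 to −0.89), cluster 14 had −0.95 (−1.87 to −0.09) and cluster 16 had −0.65 (−1.52 to 0.19).

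Few cells carried a Sema6b molecule. Among mature neutrophil-like cells, 284 of 2426 in ground (11.7%) and 25 of 2924 in running (0.855%) had at least 1 UMI, and no cell had more than 3. Erythroid-like cells, which served as a measure of free RNA, had shares of 1.46% and 1.25% at median depths of 8833 and 16941 UMIs, against 3915 and 3384 in mature neutrophil-like cells. The running share was thus below that of the deeper erythroid-like cells. Per UMI it was above, with 2.39 CPM (1.55 to 3.53) in mature neutrophil-like and 0.571 CPM (0.230 to 1.18) in erythroid-like cells of running. After thinning every cell to 1000 UMIs, which left out 46 ground and 17 running mature neutrophil-like cells, the shares were 3.87% (3.13 to 4.72) and 0.172% (0.0559 to 0.401). In erythroid-like cells they were 0.399% and 0%. In running 0 of 403 thinned cells carried it, which with a floor of 3 counts allows a share of up to 0.744%.

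**Figure D3:**
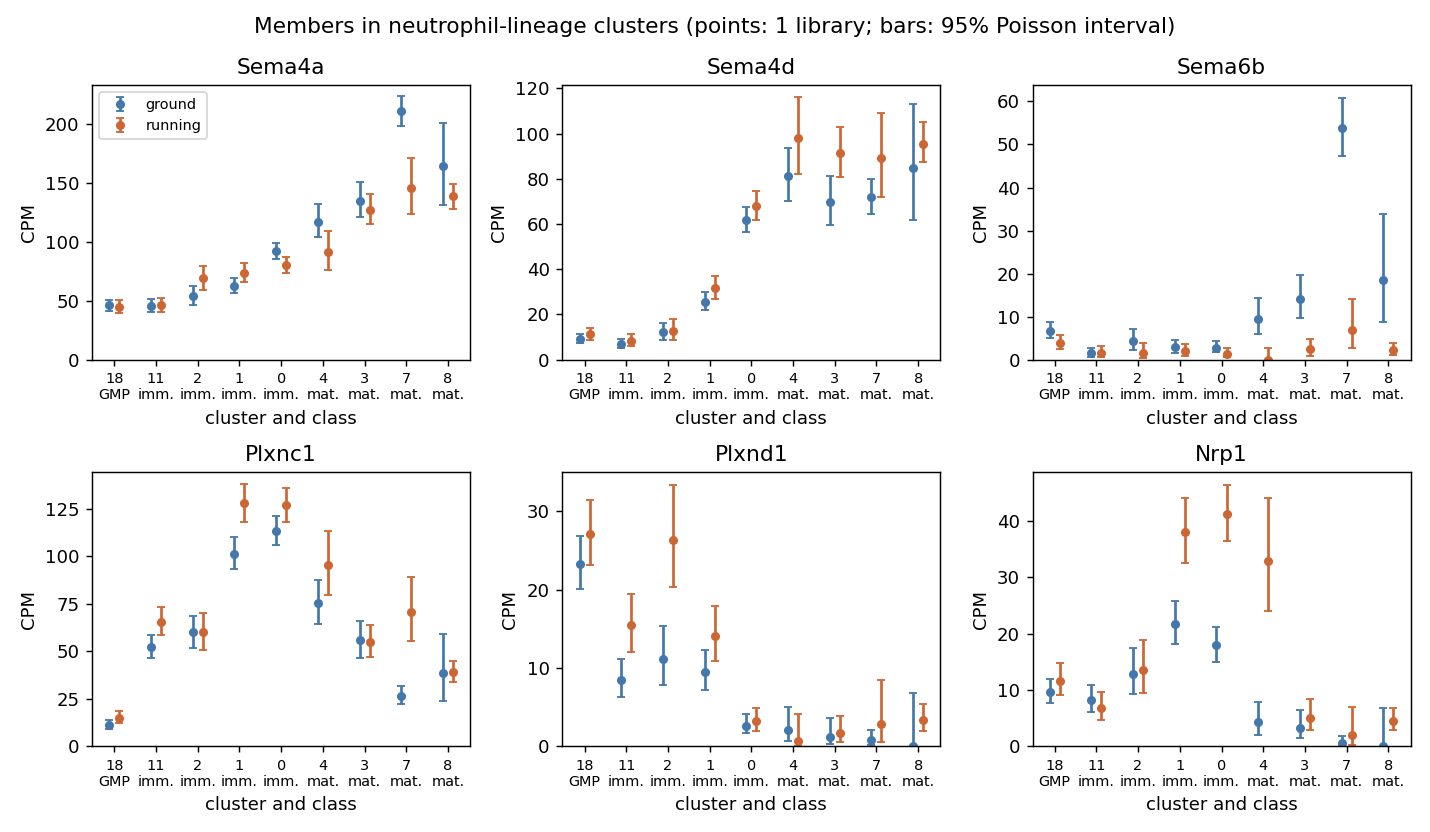
CPM of 6 members in neutrophil-lineage clusters, ordered by their leading genes from the GMP-like cluster 18 through immature (imm.) to mature (mat.) neutrophil-like clusters. Blue is ground and orange is running. Points are 1 library each and bars are 95% Poisson intervals. Sema6b reaches 53.8 CPM in cluster 7 of ground, Plxnc1 and Nrp1 peak in clusters 1 and 0, and Sema4d climbs to a plateau in the mature clusters.

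Sema4a (ENSMUSG00000028064; chromosome 3, 88435959 to 88461182) encodes a class 4 semaphorin of dendritic and T cells that binds plexins. Its level in mature neutrophil-like cells was 169 CPM in ground (1699 UMIs) and 130 CPM in running (1358 UMIs), a log2 ratio of −0.38 (−0.48 to −0.27). The intervals of the levels did not overlap, but the size was well short of 2-fold. By cluster the ratio was −0.53 (−0.79 to −0.28) in cluster 7, −0.36 (−0.68 to −0.05) in cluster 4, −0.24 (−0.56 to 0.09) in cluster 8 and −0.09 (−0.31 to 0.13) in cluster 3. Monocyte-like cells had 89.7 and 93.2 CPM and immature neutrophil-like cells 66.9 and 68.4 CPM, with intervals of the ratio that included 0. In T cell-like cells the ratio was 0.44 (0.05 to 0.84), from 79 and 172 UMIs. Plasmacytoid dendritic cell-like cells had 0 UMIs in ground and 11 in running, which is at least 2.67-fold higher with a floor of 3 counts for that class. The share of mature neutrophil-like cells with a Sema4a UMI was 46.9% in ground and 35.7% in running, or 16.8% and 12% after thinning. Erythroid-like cells had 7.10% and 5.62%, or 0.998% and 0.248% after thinning.

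Sema4d (ENSMUSG00000021451; chromosome 13, 51685529 to 51793678) encodes CD100, which binds B-type plexins and, on lymphocytes, CD72. It was highest in plasmacytoid dendritic cell-like cells (139 CPM in ground and 150 in running) and conventional dendritic cell-like cells (132 and 135 CPM), which did not differ beyond their intervals. T cell-like cells had 84.3 CPM in both libraries and B cell-like cells 71.5 and 71.8. Along the neutrophil lineage of ground it stood at 6.87 CPM in cluster 11, 12 in cluster 2, 25.7 in cluster 1 and 61.8 in cluster 0, and between 69.8 and 84.6 in the 4 mature clusters. The running library had the same order, with 8.38, 12.8, 31.6 and 67.8 CPM in the immature clusters and 89.1 to 98.1 in the mature ones. The ratio was 0.34 (0.20 to 0.48) in mature and 0.21 (0.06 to 0.36) in immature neutrophil-like cells, and −0.09 (−0.24 to 0.06) in monocyte-like cells. The immature ratio changed sign, to −0.03, at Leiden resolution 2. The median ratio of all genes was 0.10 in mature and 0.09 in immature neutrophil-like cells.

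Sema4b (ENSMUSG00000030539; chromosome 7, 80186870 to 80226646), another transmembrane class 4 gene, had 207 CPM in ground and 193 in running in plasmacytoid dendritic cell-like cells, above every other class. B cell-like cells had 88.0 and 69.9 CPM and B-cell precursor-like cells 84.4 and 65.6 CPM. The ratios were −0.33 (−0.63 to −0.04) and −0.36 (−0.62 to −0.11), both lower in running although the all-cell ratio was above 0. Cluster 15, which held 174 and 224 of the precursor UMIs, went the other way, with 193 and 244 CPM and a ratio of 0.33 (0.04 to 0.63). Clusters 13 and 17 had 20.1 and 31.3 CPM in ground and 10.4 and 22.7 in running, and cluster 13 numbered 55 and 108 cells. In the erythroid-like cluster 12, with 200 and 171 UMIs, the ratio was 0.13 (−0.18 to 0.43). As a mean of CPM over cells the precursor ratio was 0.10, and the erythroid-like ratio changed from −0.33 to 0.40, so neither direction held when every cell had equal weight. GMP-like, neutrophil-like and monocyte-like cells had less than 10 CPM.

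Plxnc1 (ENSMUSG00000074785; chromosome 10, 94790866 to 94945015) encodes plexin-C1, the receptor of Sema7A. Immature neutrophil-like cells had 2022 UMIs in ground and 1880 in running (86.5 and 102 CPM), a ratio of 0.24 (0.15 to 0.33). It was highest in clusters 1 and 0, with 101 and 113 CPM in ground and 128 and 127 in running, and lower in the clusters before and after them. The ratio of the mature class was 0.25 (0.06 to 0.43), but its clusters were uneven. Cluster 7 stood at 1.41 (0.98 to 1.84), cluster 4 at 0.34 (0.00 to 0.67), cluster 8 at 0.01 and cluster 3 at −0.02. In clusters 3 and 4 alone it was 0.05. Monocyte-like cells had 14.9 and 21.5 CPM, a ratio of 0.53 (0.24 to 0.82), and erythroid-like cells 11.3 and 16.4 CPM, a ratio of 0.54 (0.21 to 0.88). Inside the erythroid-like clusters it was −0.51 (−1.23 to 0.18) in cluster 12 and 0.17 (−0.24 to 0.58) in cluster 23, which had 73 and 170 UMIs. Haematopoietic stem and progenitor (HSPC)-like cells, at 65.6 and 77.1 CPM, and plasmacytoid dendritic cell-like cells, at 81.5 and 65.4 CPM, also carried it. Of the HSPC-like clusters, cluster 34, led in part by the megakaryocyte genes Pf4 and Itga2b, had 97.4 and 104 CPM. Cluster 35, led by Cd34, Adgrl4 and Hlf, had 28.1 and 42.1 CPM.

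Plxnb2 (ENSMUSG00000036606; chromosome 15, 89155546 to 89182018) encodes plexin-B2, a receptor of class 4 semaphorins. Macrophage-like cells had 206 CPM in ground and 185 in running, from 19 and 58 UMIs of cells with medians of only 743 and 822 UMIs. Monocyte-like cells, with 1609 and 1420 UMIs, had 135 and 125 CPM and conventional dendritic cell-like cells 115 and 125 CPM. Neutrophil-like cells nearly lacked it, at no more than 1.98 CPM in either class or library. The monocyte-like ratio was −0.11 (−0.22 to −0.01), and 0.02 as a mean of CPM over cells. The GMP-like ratio was −0.39 (−0.64 to −0.13), with −0.32 (−0.60 to −0.04) in cluster 9, which held 293 and 175 UMIs, and −0.87 (−1.61 to −0.19) in cluster 18, led by Elane, with 63 and 25.

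Plxnd1 (ENSMUSG00000030123; chromosome 6, 115954811 to 115995339) encodes plexin-D1, a receptor of Sema3E among other ligands. Monocyte-like cells had 64.0 CPM in ground and 75.2 in running, a ratio of 0.23 (0.09 to 0.38), and conventional dendritic cell-like cells 71.4 and 66.6 CPM. Within the neutrophil lineage the gene ran against Sema4d, from 23.3 and 27.1 CPM in cluster 18 to 2.66 and 3.24 CPM in cluster 0. Immature neutrophil-like cells as a class had 172 and 227 UMIs (7.36 and 12.3 CPM), a ratio of 0.74 (0.45 to 1.04). By cluster it was 0.86 (0.33 to 1.41) in cluster 11, 1.24 (0.64 to 1.86) in cluster 2, 0.57 (0.04 to 1.11) in cluster 1 and 0.28 (−0.66 to 1.23) in cluster 0. Sema3e, which encodes a secreted ligand of plexin-D1 but not its only ligand, had no UMI in either library.

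Nrp1 (ENSMUSG00000025810; chromosome 8, 128358591 to 128505476) encodes neuropilin-1, a co-receptor for Sema3A and vascular endothelial growth factor. Monocyte-like cells had 873 UMIs in ground and 1287 in running (73.5 and 113 CPM), a ratio of 0.63 (0.50 to 0.75). All 7 monocyte-like clusters had a ratio above 0, and it was 0.78 (0.60 to 0.96) in cluster 14, led by Vcan, Fn1 and S100a4, and 0.34 (0.11 to 0.57) in cluster 16, led by F13a1, Fn1 and Klf4. In cluster 36, led by Ace and Adgre4, which mark non-classical monocytes, and also by the stress genes Hspa1a and Hspa1b, it was 1.59 (0.46 to 2.86), from 9 and 27 UMIs. Plasmacytoid dendritic cell-like cells, at 97.3 and 99.1 CPM, and GMP-like cells, at 29.0 and 29.3 CPM, had ratios of 0.03 (−0.34 to 0.40) and 0.01 (−0.20 to 0.23). A higher level in running was therefore measured in monocyte-like cells and in the neutrophil lineage. Whether the classes differed in this could not be tested with 1 library per group.

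In immature neutrophil-like cells Nrp1 had 364 and 512 UMIs (15.6 and 27.8 CPM), a ratio of 0.84 (0.64 to 1.03). The early clusters 11 and 2 had ratios of −0.25 (−0.94 to 0.42) and 0.07 (−0.62 to 0.74). The later cluster 1 had 0.81 (0.48 to 1.15), and cluster 0 had 1.20 (0.90 to 1.51) from 17.9 and 41.2 CPM. The mature cluster 4 had 10 and 45 UMIs (4.28 and 32.9 CPM) and a ratio of 2.94 (1.93 to 4.10). In cluster 3 the gene had 8 and 15 UMIs, with 0.61 (−0.72 to 2.06). The mature class as a whole had 21 and 85 UMIs (2.08 and 8.13 CPM) and a ratio of 1.96 (1.26 to 2.73), and cluster 4 held 45 of the 85. Cluster 8 had no UMI in ground and 23 in running. Its running level of 4.53 CPM was below the 5.52 CPM that 3 counts would give in ground, so no difference could be read there. The class ratio also takes in the unequal cluster sizes of the libraries, and their part was not tested. The summed level of 23 immature neutrophil markers in cluster 4 was 30300 CPM in ground and 31700 in running, with 12 markers higher and 11 lower in running and none at 0. That of 32 monocyte markers in cluster 4 was 1580 and 1460 CPM, with 16 higher and 16 lower and 3 at 0 in running. The 18 plasmacytoid dendritic cell markers summed to 635 CPM in ground and 1060 in running there, with 9 higher, 4 lower, and 5 and 7 at 0. Over the whole mature class, monocyte markers summed to 2490 and 3540 CPM (20 higher, 12 lower, none at 0), plasmacytoid dendritic cell markers to 430 and 635 (9 higher, 8 lower, 2 at 0 in each library) and 22 macrophage markers to 399 and 433 (19 higher, 2 lower, 3 and 1 at 0). In the immature class the macrophage markers summed to 132 and 185 CPM, with 22 higher and 2 at 0 in ground. Its monocyte markers summed to 598 and 766 CPM (20 higher, 12 lower) and its plasmacytoid dendritic cell markers to 2300 and 2590 (12 higher, 6 lower). The 31 mesenchymal stromal markers summed to 1650 and 1340 CPM there (27 higher, 1 lower). In the mature class they summed to 1990 and 1610 CPM (15 higher, 12 lower). The cells that these lists mark carry Nrp1, and their part in its difference was not tested.

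Of monocyte-like cells, 42.4% in ground and 56.4% in running carried a Nrp1 UMI, at median depths of 9778 and 8829 UMIs. After thinning it was 5.99% (4.62 to 7.61) and 10.7% (8.90 to 12.7), with 97 and 63 shallower cells left out. The shares of immature neutrophil-like cells were 15.2% and 20.3%, and thinned 2.03% and 3.71%. Erythroid-like cells had 1.64% and 1.46%, and thinned 0.798% and 0.248%. The ground share of 0.783% in the mature class was below that of the deeper erythroid-like cells, with median depths of 3915 and 8833 UMIs. After thinning it was 0.21%, also below. Per UMI it was above, with 2.08 CPM (1.29 to 3.18) against 0.908 CPM (0.436 to 1.67) and overlapping intervals. Whether the ground level of the mature class exceeded background was not tested. In running the share was 2.43%, or 0.447% thinned, and the level of 8.13 CPM (6.50 to 10.1) lay above the 0.735 CPM (0.336 to 1.39) of erythroid-like cells.

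**Figure D4:**
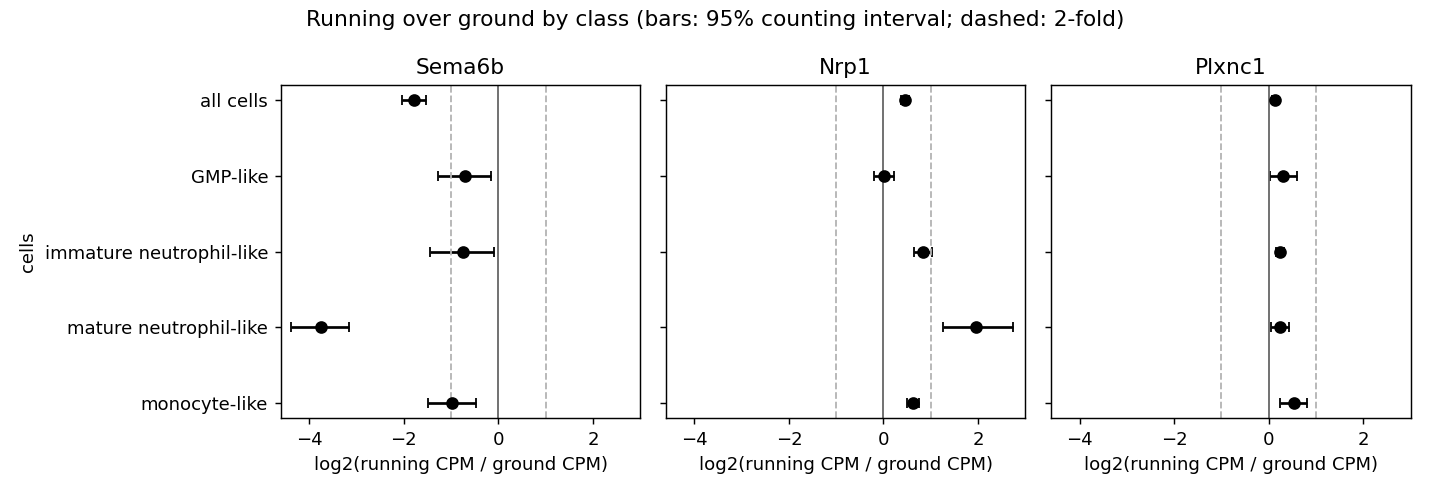
Log2 ratio of running over ground CPM for Sema6b, Nrp1 and Plxnc1 over all cells and in 4 myeloid classes. Points are 1 comparison of 1 library with 1 library, bars are 95% counting intervals and dashed lines mark 2-fold. Sema6b reaches −3.74 and Nrp1 1.96 in mature neutrophil-like cells, and Nrp1 stands at 0.01 in GMP-like cells.

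Nrp2 (ENSMUSG00000025969; chromosome 1, 62703317 to 62818692) encodes neuropilin-2, a co-receptor for Sema3F and for the lymphatic growth factor VEGF-C. It was sparse, with 281 and 262 UMIs over all cells and a ratio of −0.03 (−0.28 to 0.21). Monocyte-like cells held 148 and 104 of them (12.5 and 9.17 CPM), a ratio of −0.44 (−0.82 to −0.07). Within that class cluster 14 had 96 and 51 UMIs and a ratio of −0.71 (−1.23 to −0.20), whereas cluster 36 had 4 and 12 UMIs and 1.59 (−0.13 to 3.68). Macrophage-like cells had 8 and 12 UMIs (86.6 and 38.3 CPM) with an interval that included 0. In conventional dendritic cell-like cells, of which there were 61 and 58, Nrp2 had 1 UMI in ground and 26 in running. The 26 came from 6 cells, 1 of which held 11, and none of the 6 had a UMI of Ccr7 or Fscn1, genes of migratory dendritic cells, so the level rests on a handful of cells. Ccr7 and Fscn1 were looked at after these values were seen.

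Mesenchymal stromal-like cells, the supporting cells of the marrow, were rare, at 20 ground and 28 running cells, but had high levels of both neuropilins. Nrp1 had 27 and 46 UMIs there (609 and 486 CPM) and Nrp2 12 and 35 UMIs (270 and 370 CPM). Neither ratio's interval excluded 0. Plxnd1 had 3 and 35 UMIs (67.6 and 370 CPM). These cells had medians of 1712 and 1152 UMIs and were too few for the class comparison.

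**Figure D5:**
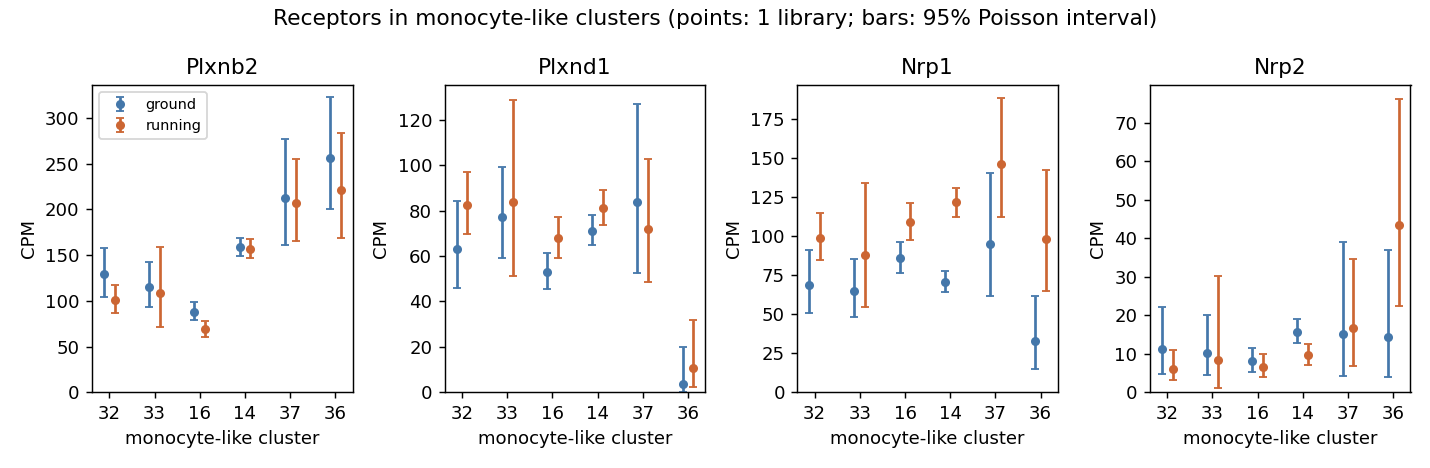
CPM of the 4 receptor genes Plxnb2, Plxnd1, Nrp1 and Nrp2 in 6 monocyte-like clusters, with ground in blue and running in orange. Clusters 32 and 33 carry histone genes among their leading genes, 16 and 14 are led by F13a1 and Vcan, 37 also by MHC class II genes and 36 by Ace. Points are 1 library each and bars are 95% Poisson intervals. Nrp1 lies higher in running in each cluster, and cluster 36 has the highest Plxnb2 of ground, 256 CPM, with the lowest Plxnd1, 3.61 CPM.

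Among the compared classes, members with at least 50 UMIs were past 2-fold in mature neutrophil-like cells alone. They were 2 of the 6 members with at least 50 UMIs (Sema6b and Nrp1) in mature neutrophil-like cells, beside 3.91% of all genes. Below that minimum in this class, Plxnb2 had −1.37 (−2.77 to −0.13), Nrp2 −1.55 (−3.19 to −0.14) and Plxnd1 1.06 (0.03 to 2.18). They had 28, 23 and 38 UMIs and were not counted. None of 9 passed 2-fold in monocyte-like cells (1.82% of all genes), none of 9 in GMP-like cells (1.35%) and none of 7 in immature neutrophil-like cells (1.42%). None of the 4 measured members did so in B cell-like (1.89%), B-cell precursor-like (1.03%) or erythroid-like cells (1.54%), none of 3 in T cell-like cells (1.48%), and not the 1 measured in macrophage-like cells (6.72%). A count of 0 among so few members is near the background. All these counts are a description only, since the members were chosen with earlier results of these data known.

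Plxnb2, Plxnd1 and Nrp1 had similar patterns over the classes, and Plxnc1 did not share them. Over the 28 sums of 14 classes and 2 libraries, Pearson's r of log2(CPM + 10) was 0.84 for Plxnb2 with Plxnd1, 0.80 for Plxnb2 with Nrp1 and 0.75 for Plxnd1 with Nrp1. Nrp2 had r from 0.51 with Nrp1 to 0.68 with Plxnb2, and Plxnc1 had r from 0.00 with Plxnd1 to 0.27 with Nrp1. The points share libraries and depth and r is a description only. Sema4a and Sema4b had opposite patterns, with r = −0.72. In single monocyte-like cells Plxnb2 was detected in 77.5% of cells with a Nrp1 UMI and 57.2% of the others in ground, and in 73.3% and 56.5% in running. Plxnd1 was detected in 54.0% and 31.4% in ground, and in 55.6% and 37.3% in running. Cells with a Nrp1 UMI also had more UMIs in all, with medians of 11410 against 8464 in ground and 10012 against 7602 in running. The part of depth in this was not tested.

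The 3 genes with the pattern most like each member's were found by the same r among 11613 genes with at least 200 UMIs. Sema6b was most like Igfbp6, whose product binds insulin-like growth factors (r = 0.89), Pde7b (0.83) and Ibsp (0.78). Igfbp6 in mature neutrophil-like cells had 125 CPM in ground and 12.2 in running, Pde7b 11 and 3.06, and Ibsp 6.75 and 1.34. The sums of this class in both libraries entered r. The genes were thus picked in part for this difference, which is no separate result. Over all cells Igfbp6 (−3.18) and Pde7b (−0.48) were also lower in running, but Ibsp was higher, at 1.14 (0.94 to 1.35). Ibsp is among the leading genes of the mesenchymal stromal-like cluster 28, whose class was not among the 14 used for r. In monocyte-like cells Igfbp6 had a ratio of −3.32 (−4.19 to −2.56), but Pde7b had 0.53 (−0.03 to 1.11). Plxnd1 was most like Ticam2 (0.96), the transcription factor gene Klf4 (0.92) and Sowahc (0.89), and Plxnb2 most like Ifi207, Cdc42bpb (both 0.95) and Cmtm3 (0.94). Nrp1 was most like Ppfia4 (0.90), Psap (0.88) and Mpeg1 (0.86), and Nrp2 most like the lipoprotein lipase gene Lpl (0.90), Slc35f6 (0.89) and Kctd12b (0.88). In monocyte-like cells Klf4 had a ratio of 0.44 (0.38 to 0.50) and Lpl one of 2.53 (2.35 to 2.71), beside 0.23 for Plxnd1 and −0.44 for Nrp2. Sema4a was most like Myo1f (0.90), Myl6 (0.89) and Atp8b4 (0.89), Sema4b most like the B-cell adaptor gene Blnk (0.88), Snn (0.86) and Cacna1e (0.85), and Sema4d most like the MHC class Ib gene H2-T23 (0.90), Arid4a (0.87) and Irf1 (0.83). Plxnc1 had no close match, with Zfhx3 at 0.69, Gm7694 at 0.67 and Peli2 at 0.65. These matches depend on the added CPM. With 1 CPM added in place of 10, none of the 3 remained for Sema6b, 1 of 3 for Sema4b, Plxnb2, Plxnc1 and Nrp2, and 2 of 3 for Sema4a, Sema4d, Plxnd1 and Nrp1.

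Of the 22 other family genes, 8 had at least 50 UMIs, and all 8 had a ratio above 0, with the interval above 0 for 6. Sema6a, just under that minimum with 35 and 13 UMIs, had −1.36 (−2.40 to −0.41), and was named after its value was seen. The median ratio of all genes was 0.08 over all cells. The share of all genes with a ratio or interval above 0 was not counted, so these counts are not read as a difference of the family. Of the other family genes, Sema4f and Sema7a had at least 200 UMIs. Sema7a, whose product is the ligand of plexin-C1, had 119 and 200 UMIs and a ratio of 0.82 (0.48 to 1.16), and mature neutrophil-like cells held 52.7% of them, with 5.26 and 11 CPM and a ratio of 1.07 (0.58 to 1.56). Sema4f had 224 and 299 UMIs and a ratio of 0.48 (0.23 to 0.74), with 69.4% of them in immature neutrophil-like cells. The mature class had 37 and 83 UMIs of Sema4f and a ratio of 1.11 (0.54 to 1.71). The 3 of these 8 past 2-fold over all cells, beside 3.02% of all genes, named after their values were seen, were Plxna2 (1.52), Sema5a (1.69) and Sema6d (1.65). Mesenchymal stromal-like cells held 48.0% of the UMIs of Plxna2 and 60.4% of those of Sema5a, and macrophage-like cells, 0.658% of ground cells and 1.98% of running cells, held 53.2% of those of Sema6d.

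Most signalling partners of the family differed little. Of 50 partner genes (receptor partners, GTPases and their regulators, and the growth factors and receptors that share neuropilins), 42 had at least 50 UMIs, with 31 ratios above 0 and 10 below over all cells. Their median was 0.12 beside 0.08 for all genes, and 2 were past 2-fold higher and 0 lower, beside 3.02% of all genes past 2-fold. These were Flt1 and Vegfc (1.01), the latter with 39 and 75 UMIs and named after its value was seen. Among partners with at least 200 UMIs the highest were Flt1, which encodes a receptor of vascular endothelial growth factor (1.15, 0.86 to 1.45), the integrin gene Itga1 (0.75) and Kdr (0.54), which encodes the receptor that works with neuropilin-1 in endothelium. In monocyte-like cells Itga1 had 75.8 CPM in ground and 144 in running and Flt1 8.08 and 19.4. The lowest were the myeloid receptor gene Trem2 (−0.63, −0.76 to −0.50), Micall2 (−0.40) and the small GTPase gene Rnd1 (−0.30). The mature neutrophil-like class had 24 measured partners, 16 above 0 and 8 below, with a median of 0.06 beside 0.10 for all genes. There Pak1, a kinase downstream of Rac (0.86), Sh3bp1 (0.62) and Tgfb1 (0.57) were highest, and Rnd1 (−0.51), the integrin gene Itgb1 (−0.35) and Limk2 (−0.10) lowest.

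The list of 8 proteases and inhibitors of semaphorin processing had 6 measured genes, 3 above 0 and 3 below. The ratios over all cells were 0.89 (0.63 to 1.16) for Mmp14, 0.20 for Timp2, 0.09 for Adam8, −0.01 for Adam17, −0.04 for Furin and −0.13 for Adam10. In mature neutrophil-like cells the sheddase genes Adam17 and Adam10 had ratios of −0.30 (−0.54 to −0.07) and −0.28 (−0.47 to −0.10), while Timp2 and Adam8 had 0.16 each and Furin 0.09.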

How the data were processed

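The authors deposited raw counts of UMIs for each gene and barcode, which Cell Ranger 5.0.0 wrote, per the file headers. The submitters' processing notes also name STAR and mm10. Libraries were made with the Chromium 3′ v3 kit, per the labels' protocols. Total counts were 85014860 UMIs over 9162 ground barcodes and 79990530 over 9473 running barcodes. The strand setting of the counting is not given in the sources used. Nrp2 overlaps Gm29083, which had 2 UMIs.

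Cells with at least 500 UMIs, 250 genes and at most 10% mitochondrial UMIs were kept. Scrublet (in scanpy 1.11.5) then removed 243 ground (2.73%) and 100 running (1.09%) doublets at thresholds of 0.242 and 0.322. With another seed it called 246 and 3, so the running threshold was unstable. After scaling to 10000 UMIs per cell, 2000 variable genes without the family genes, 30 components and 15 neighbours gave 30 Leiden clusters at resolution 1. Parts of clusters of at least 100 cells were split off where at least 3 leading genes marked another class, giving 41 clusters. Each took the class with most markers among its 10 leading genes. Clusters 5, 22, 28, 30 and 31 were shallow but had markers among their leading genes. Cluster 30, with 36 ground and 7 running cells, was named immature neutrophil-like. Its first leading genes were the monocyte markers Fn1, Klf4 and F13a1, before Chil3, Ngp and Camp, so its name is uncertain. Other names could differ from those a study would give.

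Classes with at least 200 cells per library (macrophage-like, 50) were compared, with exact Poisson, Clopper-Pearson and conditional binomial 95% intervals that cover counting error only. No test was run, since each group had 1 library. The interval procedure was tested on artificial counts. All 9 members are described, other family genes are named from 200 UMIs, and so are, from the partner lists, the 3 highest and 3 lowest ratios at that minimum. The 3 genes most like each member are named. The members and lists were chosen with earlier results of these data known. Coordinates and symbols come from the RefSeq annotation of GRCm38.p6, which matched all 9 members.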

Additional observations from a re-analysis of the deposited data

How the results depend on the processing

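The recomputed ratios were the all-cell ratios of the 9 members and those class ratios whose counting interval excluded 0. The other class ratios are not covered. Of these 33 log2 ratios, recomputed under 302 alternative values in all, 277 stayed inside the counting interval, 21 left it and 4 changed sign. The 4 were Sema4b in B-cell precursor-like (0.10) and erythroid-like cells (0.40) and Plxnb2 in monocyte-like cells (0.02) as a mean of CPM over cells, and Sema4d in immature neutrophil-like cells (−0.03) at Leiden resolution 2. As a mean of CPM over cells, which gives every cell equal weight, the all-cell ratios were −2.72 for Sema6b, 0.60 for Nrp1 and 0.00 for Plxnb2, and Nrp1 stood at 1.03 in immature neutrophil-like and 0.77 in monocyte-like cells. Scaling by the median ratio over genes (0.08 over all cells) gave −0.21 for Sema4a, 0.13 for Sema4d and 0.06 for Plxnc1. With the class proportions of ground, Sema4a, Sema4b and Sema4d had −0.20, 0.04 and 0.07, and with those of running −0.22, 0.04 and 0.09. In clusters 3 and 4 alone, a choice made after seeing the data, Sema6b stood at −2.87 in mature neutrophil-like cells. With a minimum of 200 UMIs 177 of 11613 genes were past 2-fold over all cells, against 415 of the 13738 with at least 50. With no minimum the count was 4248, which takes in every gene with UMIs in only 1 library. The all-cell ratios do not use clusters, so the 3 clustering alternatives apply to class ratios alone. Of 126 alternative levels in the highest class of each member, 112 stayed inside the counting interval.

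No paired analysis was possible because each group had 1 library. Promoter motifs were not searched and no sequences are shown, since no sequence table was used here. Depth limits Nrp2, Plxnb2 in neutrophils and every class under 200 cells.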
